A study of Homo sapiens with 16 samples.

Results

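The genes described here are follistatin (FST), its relatives FSTL1 and FSTL3, the activin and inhibin beta subunit genes INHBA, INHBB and INHBE, and the activin receptor genes ACVR1, ACVR1B, ACVR2A and ACVR2B. They are 10 of the 35810 genes for which reads were summed, and all 10 were among the 16705 genes with enough reads to be tested. The set was chosen by the strong rise of FST with the drug in these same libraries, so FST is given as a description with no test in the drug comparisons. The 9 other genes are tested there. The libraries held polyadenylated RNA of pancreatic progenitor cells at day 19 of differentiation from SA121, a human embryonic stem cell line, with the genotype NGN3-GFP, a fluorescent reporter of the endocrine factor NEUROG3. LatB libraries came from cells kept in 0.5 µM latrunculin B, a compound that binds actin monomers and depolymerises the actin cytoskeleton, for 3 h (n = 3), 6 h (n = 3), 12 h (n = 2) or 24 h (n = 3). Control libraries came from cells collected at 0 h, before treatment although they are tagged DMSO (n = 3), or after 24 h in DMSO, the vehicle (n = 2). All groups share the line, the reporter and the day, so they describe 1 line, and no vehicle library was made at 3, 6 or 12 h. The time course asked which genes change between actin depolymerisation and endocrine specification.

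Follistatin is a secreted protein that wraps around activin dimers and keeps them from their receptors. FSTL3 is a close relative with the same activity, while FSTL1 carries a follistatin domain but belongs to a more distant branch of the family. Activin A is a dimer of the INHBA product and activin B a dimer of the INHBB product. Activins bind the type II receptors ACVR2A and ACVR2B, which then phosphorylate type I receptors such as ACVR1B, a kinase for SMAD2 and SMAD3. ACVR1 is a type I receptor that mainly carries BMP signals to the other class of receptor SMADs. In the embryonic pancreas follistatin is best known as a product of the mesenchyme, and activin is a standard reagent for making endoderm from stem cells.

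The libraries held 23609727 to 33515398 estimated reads assigned to transcripts, those that matched no gene included. The 6 pancreatic progenitor markers checked (PDX1, SOX9, NKX6-1, FOXA2, ONECUT1 and GATA6) summed to 374 to 485 TPM (reads divided by transcript length, with all libraries brought to a common sum) and were expressed in every library. Their sums were 469 to 485 TPM at 0 h and 479 to 482 TPM in vehicle at 24 h. With LatB they were lower: 450 to 460 TPM at 3 h, 446 to 459 at 6 h, 405 to 425 at 12 h and 374 to 428 at 24 h. Of the 6 markers, 2 were called higher and 1 lower at 3 h, and 2 and 0 at 6 h. At 12 h 1 was called higher and 3 lower, and at 24 h 1 and 2. Of the 4 pluripotency markers, NANOG, POU5F1 and DPPA4 stayed at or below 2.02 TPM, whereas LIN28A, which encodes an RNA-binding protein, had 82.9 to 190 TPM and was called lower at all 4 LatB times (log2 fold change -0.78, -0.82, -0.63 and -0.76). The 4 endothelial markers summed to 1.04 to 4.77 TPM in 15 libraries and to 12.2 TPM in the second LatB 12 h library, most of it KDR (0.793 to 11.1 TPM over all libraries), which was called higher at 12 h. The second LatB 12 h library stood apart. Its 9 mesenchyme markers summed to 437 TPM against 60.9 to 132 in the other 15 libraries, and its 5 liver-type markers summed to 3561 TPM against 1057 to 1674. Its log2 profile correlated with its group partner at r = 0.962, a value that belongs to both libraries of the pair. All other pairs of replicates correlated at 0.976 or more. Because of its marker sums, 12 h values of the genes described are also given without it. Leaving out a 12 h or a vehicle library leaves a single library in that group. The spread in such a fit comes from the other groups alone, and its calls are weak evidence. Nothing in the labels says that replicates were separate cultures, so p-values measure the spread between these libraries, which may be technical.

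FST transcript was low in the controls and higher in every LatB library, by the least at 24 h. The control 0 h libraries had 6.34, 5.86 and 5.98 CPM (read counts scaled to a common library size, not corrected for length), and the vehicle libraries at 24 h had 5.22 and 6.61 CPM. After LatB the libraries had 51.1, 60.3 and 112 CPM at 3 h, 68.4, 90.5 and 113 CPM at 6 h, 22.7 and 32.8 CPM at 12 h, and 15.5, 9.48 and 10.2 CPM at 24 h. The lowest treated library was above the highest control, and the spread was widest at 3 h, where the third library stood above the other two. Against its control the FST mean was 12.3-fold higher at 3 h (log2 fold change 3.62 ± 0.32 SE, or 3.18 without the third library), 14.9-fold at 6 h (3.90 ± 0.32), 4.60-fold at 12 h (2.20 ± 0.34, or 1.91 without the library that stands apart) and 1.97-fold at 24 h (0.98 ± 0.37). In order of group means FST went from 6 h (90.6 ± 22.3 CPM, SD) through 3 h (74.4 ± 32.8), 12 h (27.8 ± 7.11) and 24 h (11.7 ± 3.26) to the controls at 0 h (6.06 ± 0.25) and 24 h (5.91 ± 0.98). The 3 h and 6 h ranges overlapped, as did those of both controls, and the other neighbours in this order did not. Between the controls, whose values the choice of FST also used, the FST log2 fold change was -0.03 ± 0.39, given without a test. In bulk RNA, fewer cells of a type cannot be told apart from less RNA per cell, and this holds for each gene below.

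**Figure D1:**
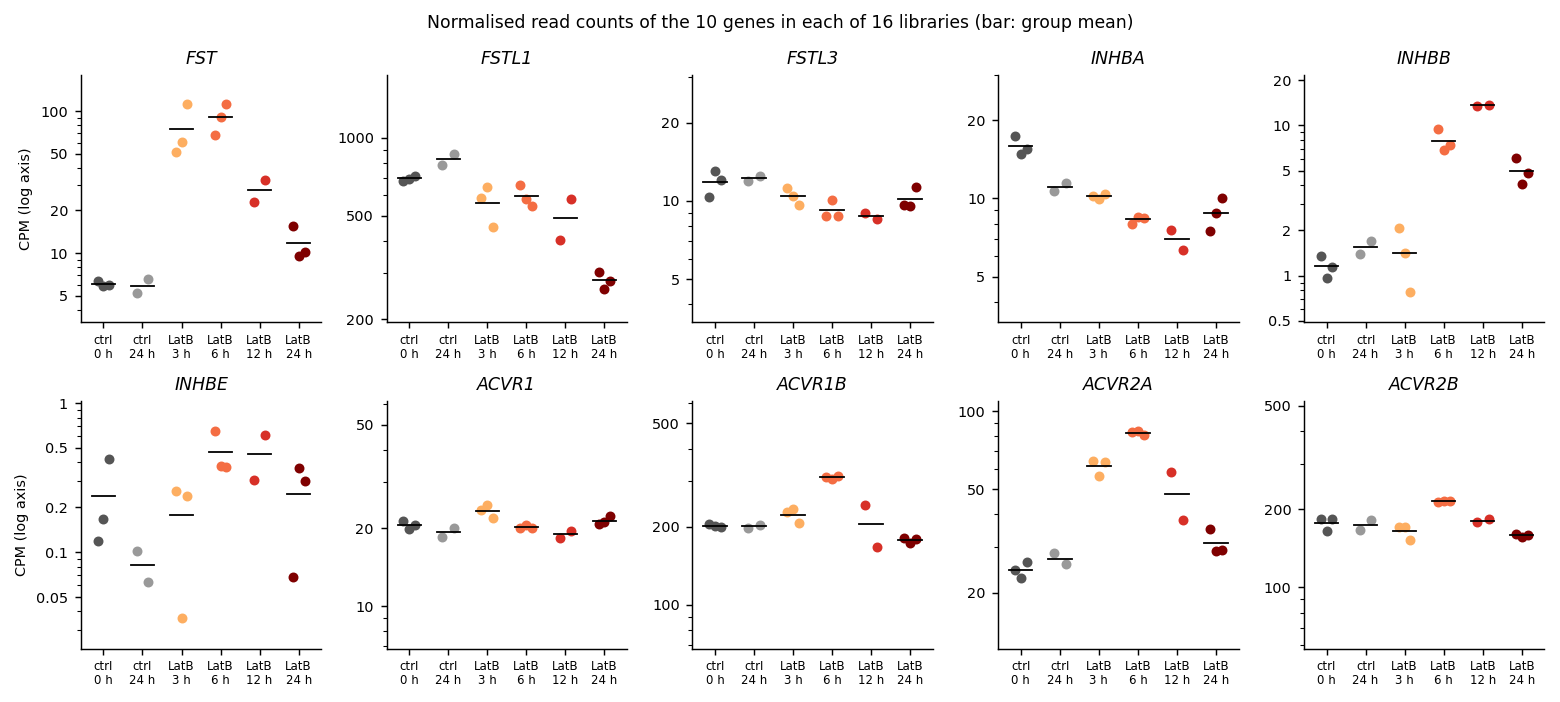
Normalised read counts (CPM, log axis) of the 10 genes in the 16 libraries, by group, with 1 point per library and a bar at the group mean. FST lies at 5.22 to 6.61 CPM in the 5 controls and at 9.48 to 113 CPM in the 11 LatB libraries, and every INHBB library from 6 h on lies above the highest control.

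Markers of other cell types were read beside FST because follistatin is a mesenchymal product in the pancreas. The mesenchyme markers summed to 63.8 to 105 TPM at 0 h, 87.9 to 132 TPM at LatB 3 h, 76.2 to 92.3 at 6 h, 80.0 and 437 at 12 h, 60.9 to 103 at 24 h and 76.6 to 82.5 TPM in the 24 h vehicle libraries. Of the 9 markers, 1 was called higher at 3 h (COL1A2, a fibrillar collagen chain, log2 fold change 1.42, edgeR adjusted p = 0.0317), 1 was called lower at 6 h (PDGFRA, a growth factor receptor, -0.37, 0.0174), and 3 were called higher at 12 h (COL3A1, LUM and TWIST1). Over all libraries the highest level of a marker ran from 1.89 TPM for THY1 to 207 TPM for COL3A1. In every group the library with the highest mesenchyme sum also had the highest FST CPM. These were the first library at 0 h (105 TPM, FST 6.34 CPM) and the second in vehicle at 24 h (82.5, 6.61). With LatB they were the third at 3 h (132, 112) and the third at 6 h (92.3, 113). At 12 h it was the second (437, 32.8) and at 24 h the first (103, 15.5). The 5 endocrine markers summed to 57.6 to 71.6 TPM at 0 h and 96.3 to 114 TPM in vehicle at 24 h, against 131 to 231, 172 to 313, 167 to 176 and 111 to 432 TPM at LatB 3, 6, 12 and 24 h. SST, the somatostatin gene, held most of that sum (38.8 to 312 TPM) and was called higher at all 4 LatB times, and NEUROG3 from 6 h on. The part of either cell type in the FST values was not tested.

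The FST gene spans chr5:53480626-53487134 on the plus strand (GRCh38, GENCODE 44), and the deposited table gives 5 of its transcripts. FST-201 encodes the long form of 344 residues and FST-202 the short form of 317, both counted with the signal peptide. They share the first 952 coding bases and part at base 953, where FST-202 reads straight into a stop codon and FST-201 is spliced to a last coding exon at chr5:53485951-53486033. That exon adds the acidic tail of the long form, which circulates, while the short form binds heparan sulphate at cell surfaces. The ends are shown because they are what separates both transcripts, with the last 12 shared bases in lower case and each transcript's own coding bases in capitals.
FST-201: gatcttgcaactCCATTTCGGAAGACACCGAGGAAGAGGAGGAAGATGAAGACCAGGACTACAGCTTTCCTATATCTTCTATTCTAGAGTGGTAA
FST-202: gatcttgcaactGA

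Both forms were higher with LatB. FST-201 had 2.96 to 4.11 TPM in the 0 h controls, 27.7, 31.7 and 57.7 TPM at LatB 3 h and 41.3, 51.6 and 61.0 TPM at 6 h. FST-202 had 0.324, 0.468 and 0.900 TPM at 0 h, 7.30, 10.2 and 20.2 TPM at 3 h and 6.73, 10.3 and 14.2 TPM at 6 h. The long form was the larger in every library. Its share of the protein-coding FST TPM was 66.1 ± 15% in the 5 controls (SD) and 68.5 ± 7.61% in the 11 LatB libraries. The difference of 2.34 percentage points pools all times and both controls, is given with no test, and ran from -1.29 to 8.10 points when 1 library was left out. The shares ran from 51.6 to 65.3% at 0 h, 70.4 and 89.2% in vehicle at 24 h, 63.1 to 66.4% at 3 h, 67.9 to 76.6% at 6 h, 66.4 and 66.8% at 12 h and 54.4 to 84.4% at 24 h. The control shares rest on 141 to 211 FST reads a library, and part of the spread among them is the short FST-205 (215 residues), listed at 0 TPM in 1 library and at up to 14.6 TPM elsewhere.

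**Figure D2:**
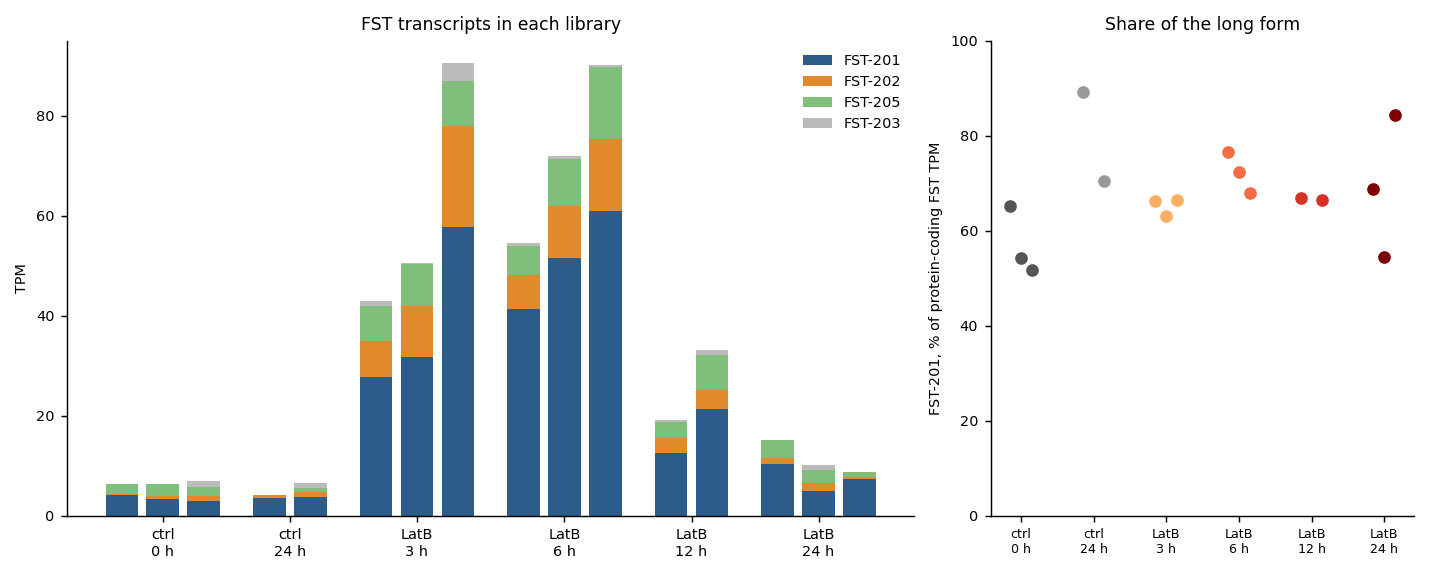
Left, TPM of 4 FST transcripts stacked in each of the 16 libraries; right, FST-201 as a percent of the protein-coding FST TPM, with 1 point per library. The long form FST-201 is the larger of both full-length forms in every library, and its share lies between 51.6 and 89.2%.

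Promoter sequence is shown for FST, for INHBA and INHBB, which went opposite ways, and for ACVR2A, the receptor gene with the largest change. FSTL3 is shown because, of the windows searched, its window alone held a CArG box, the site of serum response factor. Each run is the 250 bases before the RefSeq transcript start (GRCh38.p14), 5′ to 3′ on the gene's strand, with motif matches in capitals. RefSeq windows were found for 9 of the 10 genes, 12 windows in all, none of them for INHBE. The ACVR2A and INHBA windows lie inside the GENCODE spans of their genes, downstream of the outermost annotated start. The windows were searched on both strands for 6 motifs. Those of signalling factors were GGAATG for the TEAD factors that work with YAP, GTCTAG for SMAD proteins, TGACG for factors that answer to cyclic AMP, and TGTTTAC for FOXO factors. The others were TATAAA, the TATA box, and the CArG box.
FST promoter, chr5:53480379-53480628, plus strand: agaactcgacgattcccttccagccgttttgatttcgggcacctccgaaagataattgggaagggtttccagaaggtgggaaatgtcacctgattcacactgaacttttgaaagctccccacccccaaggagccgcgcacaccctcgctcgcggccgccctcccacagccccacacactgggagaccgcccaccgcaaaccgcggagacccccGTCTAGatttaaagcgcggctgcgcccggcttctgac
INHBB promoter, chr2:120345886-120346135, plus strand: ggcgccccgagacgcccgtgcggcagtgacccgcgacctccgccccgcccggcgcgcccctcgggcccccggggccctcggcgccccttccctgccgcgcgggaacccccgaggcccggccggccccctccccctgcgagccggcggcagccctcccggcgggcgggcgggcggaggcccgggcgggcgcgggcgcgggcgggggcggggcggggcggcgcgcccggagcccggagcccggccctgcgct
ACVR2A promoter, chr2:147844779-147845028, plus strand: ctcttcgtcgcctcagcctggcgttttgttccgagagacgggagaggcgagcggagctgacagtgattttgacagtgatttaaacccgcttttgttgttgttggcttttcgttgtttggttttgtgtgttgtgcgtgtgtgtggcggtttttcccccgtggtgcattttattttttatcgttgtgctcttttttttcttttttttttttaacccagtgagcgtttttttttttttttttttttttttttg
INHBA promoter, chr7:41703091-41703340, minus strand: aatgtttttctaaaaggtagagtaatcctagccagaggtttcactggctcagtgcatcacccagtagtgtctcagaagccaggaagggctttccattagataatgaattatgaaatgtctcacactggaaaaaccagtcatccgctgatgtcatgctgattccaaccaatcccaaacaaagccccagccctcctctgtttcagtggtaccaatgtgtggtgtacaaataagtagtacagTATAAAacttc
FSTL3 promoter, chr19:676142-676391, plus strand: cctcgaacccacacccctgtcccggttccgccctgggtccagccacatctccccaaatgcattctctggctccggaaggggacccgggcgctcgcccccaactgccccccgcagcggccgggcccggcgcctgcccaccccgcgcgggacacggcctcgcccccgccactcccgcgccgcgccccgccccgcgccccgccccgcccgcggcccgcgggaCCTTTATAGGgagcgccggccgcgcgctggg

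GTCTAG stood 37 to 32 bases before the FST start, a match that 4.92% of all 35116 promoter windows hold on either strand. Of the genes whose windows are not shown, ACVR1 held GTCTAG and GGAATG in 1 of its windows, and ACVR2B held GGAATG, which 11.9% of all windows hold. The FSTL3 window held a CArG box 31 to 22 bases before its start, which 1.16% of windows hold, and the TATAAA match on its other strand lies inside that box. INHBA had TATAAA close to its start, at 11 to 6 bases before it, a match of 10.7% of windows. The INHBB and ACVR2A windows held none of the 6 motifs, and no window of the set held TGACG or TGTTTAC, which 21.2% and 2.98% of all windows hold. In base composition the windows were unlike one another. INHBB was 89.6% G and C, whereas ACVR2A with 40.8% and INHBA with 42.8% were below the median of 58.0% and FST with 60.0% was close to it.

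The follistatin relatives did not follow FST. FSTL1, on chr3:120392293-120451016, was the most abundant gene of the set by TPM (437 to 572 TPM in the controls). It had 684, 694 and 713 CPM at 0 h and 787 and 862 CPM in vehicle at 24 h, against 587, 643 and 453 CPM at LatB 3 h, 657, 580 and 546 CPM at 6 h, 403 and 580 CPM at 12 h, and 305, 261 and 281 CPM at 24 h. Every LatB library was below every control. At 24 h FSTL1 was 2.92-fold lower than in vehicle (fell by 1.55 ± 0.15 on the log2 scale, edgeR adjusted p = 7.3e-06). The earlier differences were smaller: -0.31 at 3 h (adjusted p = 0.0972), -0.23 at 6 h (0.193) and -0.50 at 12 h (0.0208, with -0.79 without the library that stands apart). Set against the 24 h vehicle in place of 0 h, the 3 h and 6 h differences were -0.56 and -0.47 and passed (adjusted p = 0.0119 and 0.0216). The 12 h call was lost without its first library (-0.27, adjusted p = 0.207) or the third 0 h control (-0.49, 0.0518), and the 3 h difference passed without the second LatB 3 h library (-0.44, 0.0406). Between LatB 6 h and 24 h FSTL1 fell by 1.07 (adjusted p = 5.3e-05).

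FSTL3 moved little. It had 10.4 to 13 CPM in the 5 controls and 8.49 to 11.3 CPM in the 11 LatB libraries, and these ranges overlap. It was lower at 6 h (log2 fold change -0.36 ± 0.10, edgeR adjusted p = 0.0134) and 12 h (-0.44 ± 0.12, 0.0113), and did not pass at 3 h (-0.17, 0.229) or 24 h (-0.26, 0.0823). The 6 h and 12 h calls were lost with an offset for transcript length (adjusted p = 0.195 and 0.129), at 12 h also without the library that stands apart (-0.40, 0.0663), and at 6 h without the second 0 h control (-0.30, 0.0543). Without the third LatB 24 h library the 24 h difference passed (-0.35, 0.0406).

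The activin subunits went opposite ways: INHBA was called lower at every LatB time, and INHBB was called higher from 6 h on. INHBA, on chr7:41667168-41705834, had 17.3, 14.9 and 15.4 CPM at 0 h and 10.6 and 11.5 CPM in vehicle at 24 h. It had 10.2, 9.92 and 10.4 CPM at LatB 3 h, 7.99, 8.51 and 8.42 at 6 h, 7.57 and 6.32 at 12 h, and 7.47, 8.81 and 10.1 CPM at 24 h. All LatB libraries were below all controls, and the vehicle libraries lay between them and the 0 h libraries. The log2 fold changes were -0.64 ± 0.11 at 3 h (edgeR adjusted p = 0.000441), -0.93 ± 0.11 at 6 h (1.6e-05), -1.20 ± 0.12 at 12 h (1.2e-05, and -1.07 without the library that stands apart) and -0.33 ± 0.12 at 24 h (0.0374). Values also differed without the drug: from 0 h to the 24 h vehicle the log2 fold change was -0.52 ± 0.12, with adjusted p = 0.0860 in edgeR and 0.0164 in DESeq2. With the 24 h vehicle as the reference, the 3 h difference was -0.12 and not called (adjusted p = 0.475). The 24 h call was lost under 9 alternatives, among them leaving out the first or second vehicle library or the first or second LatB 24 h library (adjusted p = 0.0845, 0.193, 0.122 and 0.0716).

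INHBB, a gene on chr2:120346136-120351803, had 1.36, 0.972 and 1.15 CPM at 0 h and 1.39 and 1.69 CPM in vehicle at 24 h, or 27 to 54 reads a library. At LatB 3 h it had 2.08, 1.41 and 0.784 CPM, a range that covers the controls. It then had 9.48, 6.81 and 7.42 CPM at 6 h, 13.5 and 13.6 CPM at 12 h, and 6.11, 4.05 and 4.82 CPM at 24 h, all above the highest control. INHBB was not called at 3 h (log2 fold change 0.31 ± 0.30, edgeR adjusted p = 0.478), and was 6.83-fold higher at 6 h (2.77 ± 0.28, 6.1e-06), 11.7-fold at 12 h (3.55 ± 0.30, 2.2e-06) and 3.23-fold at 24 h (1.69 ± 0.31, 0.000831). Leaving out the library that stands apart left the 12 h value at 3.55. The fall from 6 h to 24 h, -0.66 ± 0.25, did not pass in edgeR (adjusted p = 0.0521) and passed in DESeq2 (0.0325) or without the first LatB 24 h library (-0.83, 0.0353). The difference of effects between 24 h and 3 h, each against its own control, was 1.38 ± 0.43 (adjusted p = 0.0275), and this call was lost without the first 0 h control, either vehicle library or the first LatB 24 h library (adjusted p = 0.0693, 0.113, 0.0526 and 0.0554).

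INHBE, the beta E subunit gene, had 1 to 18 reads a library, at 0.0361 to 0.647 CPM, and was not called in the comparisons with the 0 h controls at 3, 6 and 12 h or with vehicle at 24 h (log2 fold change -0.37 ± 0.70, 0.99 ± 0.65, 0.98 ± 0.71 and 1.55 ± 0.87, edgeR adjusted p = 0.738, 0.243, 0.306 and 0.176). With the 24 h vehicle as the reference it passed at 6 h (2.45, adjusted p = 0.0316) and 12 h (2.45, 0.0484), against vehicle libraries with 2 to 3 reads. Without the library that stands apart the 12 h value was 0.39.

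On the per-length scale of TPM the subunits and follistatin can be set beside each other. INHBB was 7.38 to 10.1% of the summed INHBA and INHBB TPM at 0 h, 15.8 and 17.9% in vehicle at 24 h and 8.74 to 22.4% at LatB 3 h, then 48.5 to 59.1% at 6 h, 68.9 and 75.3% at 12 h and 37.0 to 48.3% at 24 h. INHBB was the larger part of the summed level in 2 of 3 libraries at 6 h and in both at 12 h, and the smaller part in the other 12 libraries. The summed level itself stayed between 3.27 and 7.90 TPM over the 16 libraries. FST TPM over that sum was 1.0 to 1.45 at 0 h and 1.09 and 1.67 in vehicle at 24 h. With LatB it was 11.9 to 26.7 at 3 h, 8.83 to 16.2 at 6 h, 2.53 and 4.18 at 12 h and 1.69 to 2.85 at 24 h, and since FST chose the set, no test is given. These are transcript ratios and do not measure protein.

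**Figure D3:**
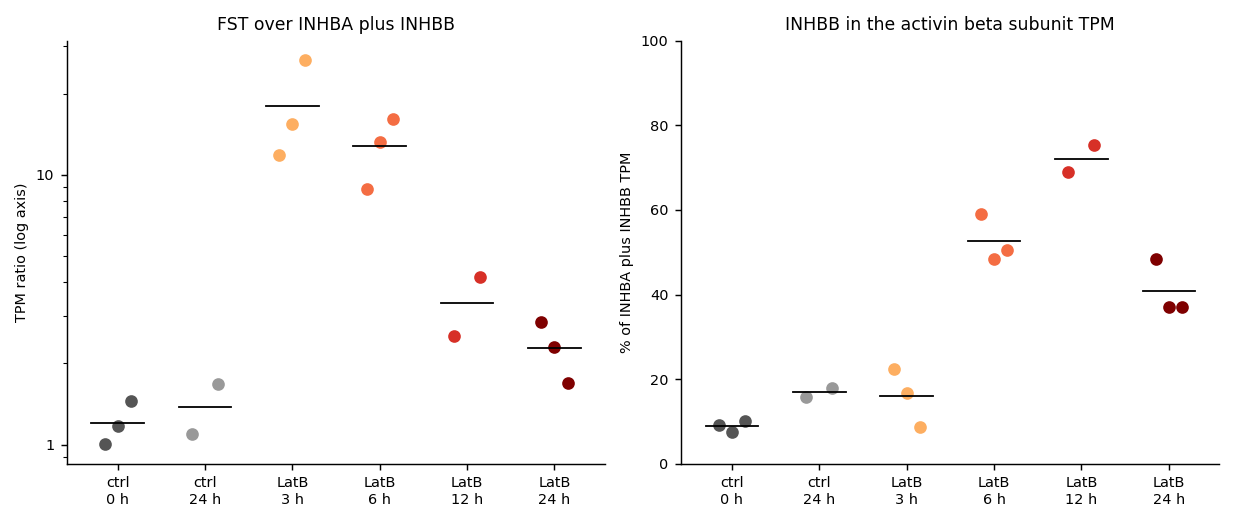
Left, FST TPM over the sum of INHBA and INHBB TPM (log axis); right, INHBB as a percent of that sum; 1 point per library with a bar at the group mean. The ratio is 1.0 to 1.67 in the 5 controls and 11.9 to 26.7 at LatB 3 h, while the INHBB share lies above every control in all libraries from 6 h on.

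Among the receptors, ACVR2A rose with FST and the rest changed less. ACVR2A, a type II receptor gene on chr2:147844517-147930826, had 24.4, 22.7 and 26.2 CPM at 0 h and 28.3 and 25.7 CPM in vehicle at 24 h. After LatB it had 64.1, 56.1 and 63.8 CPM at 3 h, 83.2, 84.2 and 80.7 CPM at 6 h, 58.1 and 38.1 CPM at 12 h, and 35.0, 28.9 and 29.1 CPM at 24 h. All LatB libraries were above the highest control, those of 24 h by the least. The gene was 2.51-fold higher at 3 h (log2 fold change 1.33 ± 0.13, edgeR adjusted p = 5.7e-06), 3.39-fold at 6 h (1.76 ± 0.13, 4.1e-07) and 1.96-fold at 12 h (0.97 ± 0.14, 0.000165, or 1.25 without the library that stands apart), and did not pass at 24 h (0.20 ± 0.14, 0.291). From 6 h to 24 h it fell by 1.42 ± 0.13 (adjusted p = 3.0e-06), and the difference of effects between 24 h and 3 h was -1.13 ± 0.19 (0.000823). The 12 h call and this difference were lost on TPM or with an offset for transcript length (highest adjusted p = 0.0823 and 0.160). The short ACVR2A-205, a transcript of 274 bases, was listed at 0 in 8 libraries and at up to 19.6 TPM in others. Its part in these lost calls was not tested.

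ACVR2B, the other type II receptor gene, had 165 to 184 CPM in the 5 controls, 152 to 171 CPM at LatB 3 h, 213 to 216 CPM at 6 h, 178 and 183 CPM at 12 h and 156 to 161 CPM at 24 h. It stood above the control range at 6 h alone. It was called there (log2 fold change 0.28 ± 0.06, edgeR adjusted p = 0.00127) and not at 3, 12 or 24 h (adjusted p = 0.165, 0.757 and 0.106), and it fell by 0.43 ± 0.06 from 6 h to 24 h (5.7e-05). The 6 h call was lost on log2(TPM + 1) and log2(TPM + 0.1) (0.18 and 0.19, adjusted p = 0.0877 and 0.0882). The 3 h difference, -0.11, passed without the second 0 h control (-0.18, 0.0375). Without the library that stands apart the 12 h value was 0.0068, against 0.029 with it.

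ACVR1B, a type I receptor of activins, was also highest at 6 h. It had 198 to 204 CPM in the controls, 207 to 234 CPM at LatB 3 h, 306 to 313 CPM at 6 h, 242 and 167 CPM at 12 h, and 173 to 182 CPM at 24 h. All 3 h libraries lay above the controls, but the difference did not pass (0.14 ± 0.10, edgeR adjusted p = 0.305). It was called at 6 h, where it was 1.53-fold higher (log2 fold change 0.62 ± 0.10, edgeR adjusted p = 0.000187), and it fell by 0.80 ± 0.10 from 6 h to 24 h (3.4e-05). At 12 h the libraries lay on either side of the controls, and the value was 0.02 ± 0.11. Leaving out the first or the second library made it -0.28 or 0.26, each from a single 12 h library. ACVR1, a type I receptor used mainly by BMPs, had 18.4 to 21.3 CPM in the controls and 18.3 to 24.6 CPM with LatB. Its rise at 3 h was small (0.18 ± 0.06, edgeR adjusted p = 0.0324) and was lost under 12 alternatives, DESeq2 among them (0.0842). Among these 12 were leaving out the second or the third 0 h control or the first or second LatB 3 h library (0.173, 0.0752, 0.120 and 0.197). ACVR1 was called at no other time. At 12 h ACVR1 was at -0.12, or -0.17 without the library that stands apart.

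**Figure D4:**
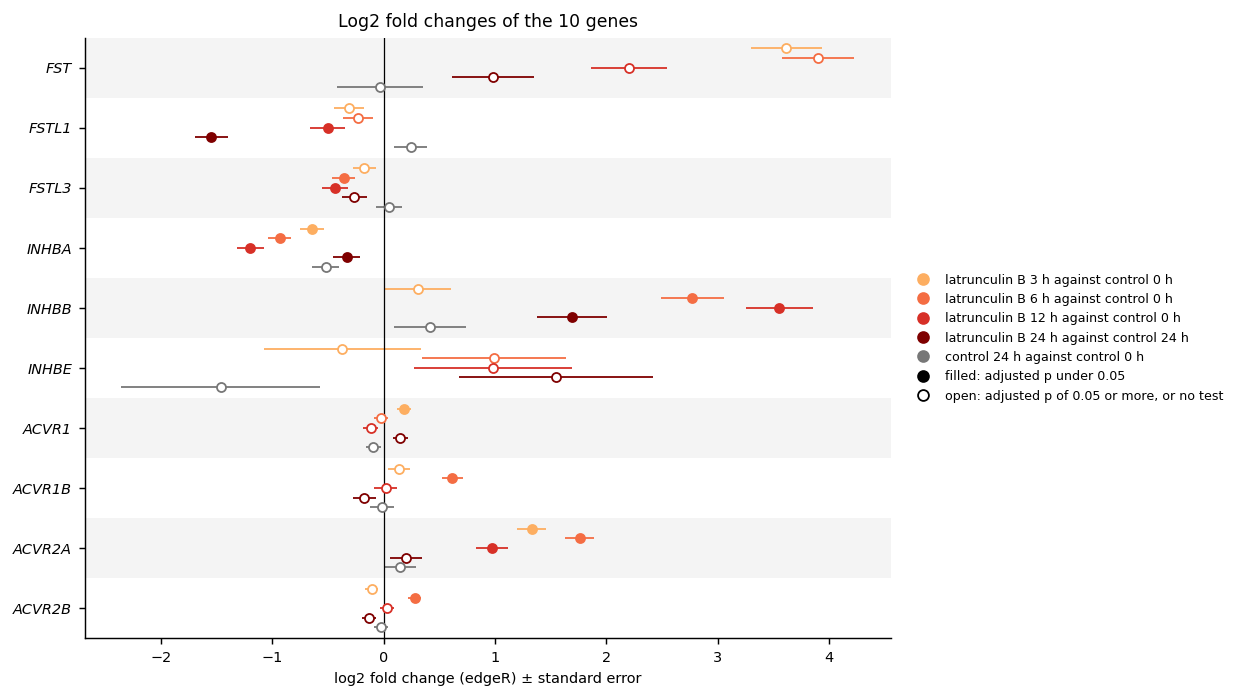
Log2 fold changes of the 10 genes from edgeR with standard errors derived from its F statistic, in 4 LatB comparisons and between the controls. Filled points have an adjusted p under 0.05, and FST carries no test in the LatB comparisons. ACVR2A peaks at 6 h (1.76) and is at 0.20 by 24 h, INHBB peaks at 12 h (3.55), and INHBA lies below 0 throughout.

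Counted over the 9 genes other than FST, 3 were called at LatB 3 h (2 higher, 1 lower), where 31.6% of all genes tested were called (16.8% higher, 14.7% lower). At 6 h 6 were called (4 higher, 2 lower; 43.3% of all genes, 22.9% higher and 20.4% lower), at 12 h 5 (2 higher, 3 lower; 35.8% of all genes, 19.1% higher and 16.8% lower) and at 24 h 3 (1 higher, 2 lower; 40.8%, 21.9% higher and 18.8% lower). From LatB 6 h to 24 h 4 were called, all lower (37.9% of all genes, 19.0% higher and 18.9% lower), and the effects at 24 h and 3 h differed for 3, 1 upward and 2 downward (27.9%, 14.6% and 13.4%). At 3 h and 24 h the share of the 9 genes was near that of all genes, and at 6 h and 12 h it was above it, a difference that was not tested. Between the controls none of the 9 was called in edgeR (0.251% of all genes, 0.0299% higher and 0.221% lower). INHBA, 1 of the 9, had an unadjusted p under 0.05, and DESeq2 called 1. Comparisons at 3, 6 and 12 h share the 0 h libraries, so their values are not independent of each other.

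The 5 genes whose log2 CPM followed FST most closely over the 16 libraries were DDIT4 (Pearson r = 0.985), an inhibitor of mTORC1, AMD1 (0.985), an enzyme of polyamine synthesis, NRIP1 (0.978), a corepressor of nuclear receptors, BTG1 (0.977), an antiproliferative factor, and SBNO1 (0.974). They were found among 13625 genes compared. The libraries share their groups, so this is a description of group pattern and not of single libraries. DDIT4 had 68.7 ± 4.82 CPM at 0 h (SD), 299 ± 35.8 CPM at LatB 3 h, 294 ± 42.9 CPM at 6 h, 172 ± 10.9 CPM at 12 h and 104 ± 2.69 CPM at 24 h. Of the set, ACVR2A was the closest to FST (0.948), ACVR1B had r = 0.650, and FSTL3 (-0.638) and INHBA (-0.556) ran the other way.

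Of 49 other genes of the activin and BMP pathways listed, 45 could be tested. At LatB 3 h 11 were higher and 7 lower, at 6 h 13 and 7, at 12 h 12 and 10, and at 24 h 7 and 13. These are 18, 20, 22 and 20 of 45, beside 31.6, 43.3, 35.8 and 40.8% of all genes tested. None was called between the controls in edgeR, where 3 (BMP6, TGFBR3 and NOG) had an unadjusted p under 0.05. Median log2 fold changes of the 45 were 0.015, 0.093, 0.021 and -0.067, beside 0.0021, -0.010, 0.011 and 0.0081 over all genes. By role, the activin and nodal class ligands counted 2, 3, 3 and 2 calls of 6 tested at these times, the BMP ligands 1, 3, 4 and 3 of 5, the other receptors and co-receptors 1, 3, 3 and 4 of 10, the other secreted antagonists 1, 1, 3 and 2 of 7, and the SMADs and their regulators 13, 10, 9 and 9 of 17. Of the SMADs and their regulators, 9 were higher and 4 lower at 3 h, and 7 and 3 at 6 h. At 12 h 2 were higher and 7 lower, and at 24 h 3 and 6.

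INHA, the inhibin alpha subunit that pairs with INHBA or INHBB products to give inhibins, was higher at all 4 times. It had 3.18 to 4.16 CPM in the 5 controls and 5.16 to 11 CPM in the LatB libraries, which do not overlap, and its log2 fold changes were 0.92, 1.04, 0.97 and 0.86 (edgeR adjusted p = 0.0115, 0.00406, 0.0132 and 0.0254). At 3 h INHA was at 0.47 without the third LatB 3 h library (adjusted p = 0.0553), which had 11 CPM, and at 0.79 without the second 0 h control (0.0596). At 12 h it was at 0.84 without that control (0.0555) and 0.92 without the library that stands apart (0.0593). At 24 h it ran from 0.74 to 0.99 and lost its call without either vehicle library (0.0762 and 0.151) or without the second or the third LatB library (0.0627 and 0.0669). Among the BMP ligands, BMP2 was lower at all 4 times: it had 207 to 237 CPM in the controls and 53.8 to 115 CPM with LatB, and its values were -1.21, -1.59, -1.72 and -1.34 (adjusted p = 0.000301, 2.4e-05, 7.2e-05 and 0.000225). BMP7 went the other way, with 28.9 to 36.2 CPM in the controls, 30.1 to 34.6 CPM at 3 h, 49.0 to 55.4 at 6 h, 78.7 and 132 at 12 h and 69.1 to 79.7 CPM at 24 h. Its fold changes from 6 h on were 0.68, 1.67 and 1.16 (adjusted p = 0.00242, 6.3e-06 and 0.000158), and 1.25 at 12 h without the library that stands apart. The 6 h call of BMP7 was lost on log2(TPM + 1) and log2(TPM + 0.1) (0.36 and 0.38, adjusted p = 0.182 and 0.166). BMP6 was lower from 6 h on, with log2 fold changes of -0.53, -1.05 and -1.15 and with 9.98 to 10.4 CPM at LatB 24 h against 20.7 and 24.7 CPM in vehicle (adjusted p = 1.1e-05 at 24 h). Its 6 h call was lost with the 24 h vehicle as the reference (-0.067, 0.684).

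BMPR1B, a type I receptor for BMPs, had 4.32 to 6.10 CPM in the controls and 11.9 to 13.6 CPM at LatB 6 h, with a log2 fold change of 1.48 (edgeR adjusted p = 1.8e-05). At 12 h it was 0.65 (0.0178), a call lost without the first 12 h library (0.18, 0.416) or the second 0 h control (0.59, 0.0630), on TPM, and with the 24 h vehicle as the reference (0.33, 0.248). Without the library that stands apart it was 1.015. Among the secreted antagonists, NOG (noggin, which binds BMPs) had 7.77 to 8.65 CPM at 0 h and 4.98 and 5.20 CPM in vehicle at 24 h, against 0.307 to 0.614 CPM at LatB 24 h. It was lower at all 4 times and fell by 3.42 ± 0.29 at 24 h (edgeR adjusted p = 3.1e-06). Its 3 h and 6 h calls were lost with the 24 h vehicle as the reference (log2 fold change -0.41 and 0.049). Its 6 h call was also lost without the first, the second or the third 0 h control (0.0737, 0.0550 and 0.0911) or the second or the third LatB 6 h library (0.0933 and 0.118).

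Both inhibitory SMADs fell at every time, whereas most called genes of their list were higher at 3 h and 6 h. SMAD7, which blocks activin and TGF-beta receptors and is itself induced by their signals, had 12.9 to 16.4 CPM in the controls and 2.97 to 5.49 CPM with LatB, ranges that do not overlap. Its log2 fold changes were -2.26, -1.82, -1.78 and -1.69 (edgeR adjusted p = 2.1e-07, 6.2e-07, 4.0e-06 and 3.7e-06). SMAD6, which acts mainly on BMP signals, had 28.0 to 35.8 CPM in the controls and 10.6 to 19.5 CPM with LatB, and its values were -1.39, -0.90, -0.86 and -0.60 (adjusted p = 8.9e-07, 1.7e-05, 0.000113 and 0.000993). Without the library that stands apart the 12 h values were -1.99 for BMP2, -0.88 for BMP6, -1.94 for NOG, -1.96 for SMAD7 and -0.73 for SMAD6. These values rest on a single 12 h library.

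**Figure D5:**
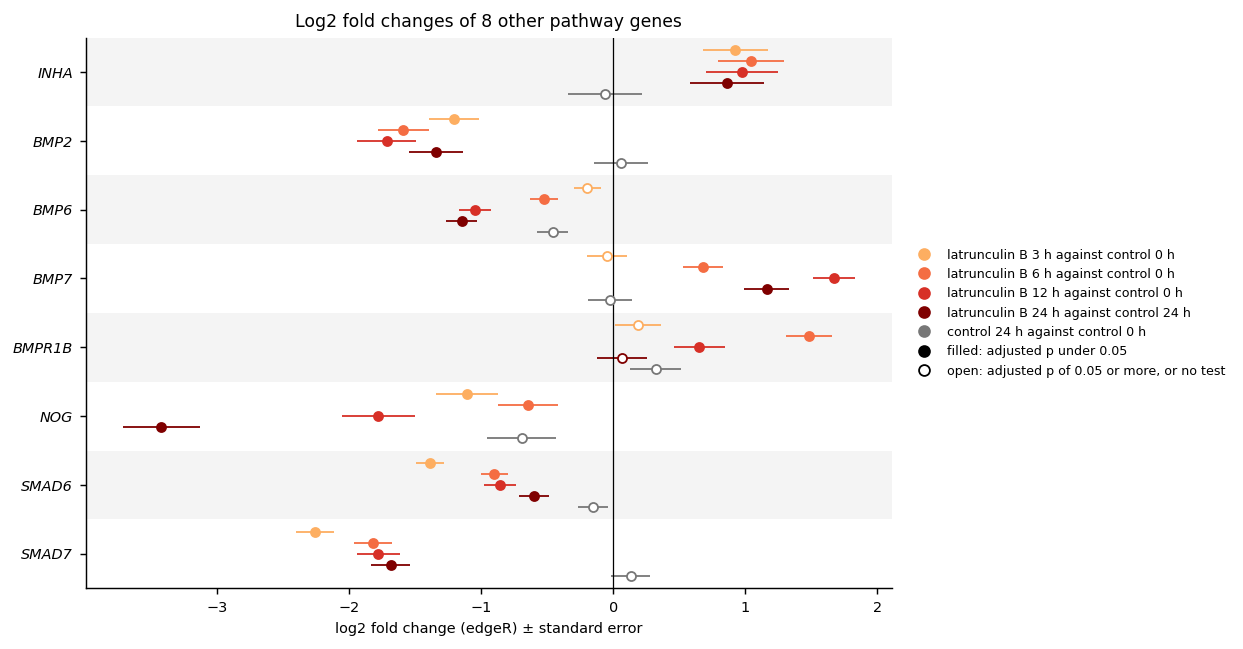
Log2 fold changes of the 8 other pathway genes that passed the rule for naming, with derived standard errors, in the same comparisons and symbols. SMAD7 and BMP2 lie below -1 at all 4 LatB times, INHA lies above 0.8, and NOG falls furthest at 24 h (-3.42).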

How the data were processed

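Polyadenylated RNA was sequenced from 16 libraries in 6 groups. For each library the authors deposited estimated counts and TPM per transcript from Salmon 1.3.0, with hg38 and DESeq2 also named in the submitters' processing notes; the methods of the study describe another route through an aligner, so the transcript annotation behind the deposited values is not given in the sources used here. The authors deposited 1 further table with log2 fold changes, errors and p-values of their own comparisons and 16 per-sample columns, none of which were used.

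Genes were assigned through GENCODE 44 (GRCh38), matching transcript identifiers with their version dropped: 165533 of 177456 matched, and the unmatched held 2.92 to 3.17% of the reads of a library. Counts were summed per gene and rounded, and TPM were summed per gene. Genes were kept by edgeR's filter on low counts, and 1 quasi-likelihood model with a coefficient per group was fitted over all 16 libraries with TMM scaling (factors 0.948 to 1.05), without covariates (edgeR 4.0.16, R 4.3.3). Adjusted p-values are Benjamini-Hochberg values over all 16705 genes tested, two-sided, called under 0.05. CPM use TMM-scaled library sizes. The FST transcript share, which had been set down for an exact permutation test, is given with no test, since FST chose the set. Depth limits the low genes: counting error alone is large for INHBE. The procedure was tested on simulated counts.

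The genes and gene lists were chosen with earlier results of these data known. All 10 genes are named. Some genes of the pathway and marker lists are not reported here. Of the other pathway genes, those called in at least 2 of the 4 comparisons of LatB with a control, with a log2 fold change of at least 1 in either direction in 1 of them, are named, at most 4 per list. Genes like FST are the 5 with the highest Pearson r among genes with a mean of at least 1 CPM. Alternatives were DESeq2 1.42.0, other scalings, no filter or a filter at a mean of 50 counts, a transcript length offset, protein-coding transcripts alone, the compared groups alone, a replicate block, the 24 h control as reference, limma 3.58.1 on log2(TPM + 1) or log2(TPM + 0.1), and leaving out each library. Promoter windows are RefSeq's (GRCh38.p14).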

Additional observations from a re-analysis of the deposited data

Results flagged for a closer look

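The effect of LatB at 24 h, against the 24 h vehicle, was compared with its effect at 3 h, against 0 h, by a contrast in the edgeR model, and 7 genes named in the report differed between both times (log2 difference, 24 h minus 3 h). It was -1.23 ± 0.20 for FSTL1 (adjusted p = 0.00068), 1.38 ± 0.43 for INHBB (0.0275) and -1.13 ± 0.19 for ACVR2A (0.000823). Among the other pathway genes it was 1.21 ± 0.22 for BMP7 (0.00162), -0.95 ± 0.16 for BMP6 (0.000694), -2.32 ± 0.38 for NOG (0.000652) and 0.79 ± 0.16 for SMAD6 (0.00237). The value for FST was -2.64 ± 0.48, given without a test. No group had the 4 samples needed for a rule that flags a single sample far from its group. The second LatB 12 h library was set apart by its marker sums.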

How the results depend on the processing

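Of 1119 alternative values for the 9 genes other than FST and for FST between the controls, 1047 kept their direction or stayed uncalled. Of the rest 46 lost and 25 gained a call and 1 reversed, and 42 of the uncalled changed sign. The value that reversed was ACVR1B at 12 h without the first 12 h library (-0.28, and 0.26 without the second). Each of these fits left a single 12 h library. For the named pathway genes 946 of 992 were kept, 33 lost and 12 gained a call, and 25 uncalled values changed sign. With the 24 h control as reference NOG at 6 h changed sign and lost its call (log2 fold change 0.049, edgeR adjusted p = 0.902). FST stayed between 2.98 and 3.81 at 3 h, 3.26 and 4.05 at 6 h, 1.81 and 2.43 at 12 h and 0.73 and 1.16 at 24 h. Genes of the 9 called at 12 h were 3 with the length offset, with the compared groups alone and on TPM with either pseudocount, and 4 to 5 with a library left out. Genes called in all at 12 h were 2828 with the compared groups alone, 3981 on log2(TPM + 0.1) and 4826 to 6162 with a library left out (5988 in the report's fit), at 24 h 4034 to 6424 (6809), the lowest without the first vehicle library. The difference of effects gave 2981 genes with the length offset, 2941 and 2940 on TPM with pseudocounts of 1 and 0.1, and 3012 to 4535 with a library left out (4665), the lowest without the first vehicle library. Between the controls 42 genes were called, and 248 in DESeq2, 8 with RLE scaling, 7 without scaling, 91 without a filter, 87 with a mean of at least 50 counts, 8 with the length offset, 66 from protein-coding transcripts, 218 with the compared groups alone, 2 and 7 on TPM, and 2 to 9 with a library left out; 1 of the 9 genes was called in DESeq2. The causes were not tested. Without scaling the share of calls that were higher was 36.1% at 3 h (53.3% in the report's fit), 37.7% at 6 h (52.8%), 73.8% from 6 h to 24 h (50.1%) and 69.0% for the difference of effects (52.1%), and the median of all genes shifted to -0.10 at 6 h and 0.14 from 6 h to 24 h. Deviations of libraries with the same replicate number correlated at -0.05 to 0.11 over all genes tested. Pairs with different numbers were not compared, so these values cannot tell whether the numbers pair the samples. With the replicate number as a block 4853, 6863, 5364 and 6005 genes were called at 3, 6, 12 and 24 h, and 6 between the controls. The groups of 2 libraries, low counts of INHBE and INHBB, and the lack of vehicle libraries before 24 h limit what these values can show.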
